A study of Mus musculus with 9 samples.

Results

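Hair follicle stem cell genes were examined in mouse back skin: Lgr5, Lgr6, Cd34, Lhx2, Sox9, Nfatc1, Tcf7l1, Lrig1, Fgf18 and Shh. A probe was counted to the set when its gene symbol in the platform annotation equalled one of the names LGR5, LGR6, CD34, LHX2, SOX9, NFATC1, TCF7L1, LRIG1, FGF18 or SHH, with case ignored. All 10 genes were found, of 17742 named genes in all, on 12 of the 26423 probes, because Nfatc1 had 3 probes and each of the others had 1. Every mouse was a female BALB/c, with no age in the labels used here, and was treated daily for 7 days on shaved back skin. The Mock group received Vaseline cream, and the IMQ group received imiquimod, which activates a toll-like receptor and gives psoriasis-like inflammation in mice. The Vanillin group received the same imiquimod and, by mouth, 100 mg/kg of vanillin, the main aroma compound of vanilla. There was no group given vanillin without imiquimod. Each group had 3 one-colour arrays of total RNA. The labels do not say whether the arrays came from separate or pooled mice, and each p-value therefore rests on array-to-array spread that may be technical.

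The hair follicle regrows in cycles from stem cells that lie in a niche of the outer root sheath called the bulge, just above a small hair germ. Cd34, Lhx2, Sox9, Nfatc1 and Tcf7l1 are known from bulge cells, Lgr5 from bulge and germ, and Lgr6 and Lrig1 from the isthmus and junctional zone above the bulge. The bulge is held at rest by signals such as FGF18 and BMP, while Wnt signals and, in the growing follicle, sonic hedgehog (Shh) drive growth. None of these genes is unique to follicle stem cells. Cd34 is also made by endothelium, some fibroblasts and mast cells, Nfatc1 by lymphocytes, and Lgr6 and Lrig1 by other epidermal cells. In bulk skin, fewer cells of a type and less RNA per cell cannot be told apart.

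The deposited values are linear probe intensities with nearly equal distributions on all arrays, and array medians ran from 629 to 631. The tissue label names skin but the extraction text names muscle. Suprabasal keratinocyte markers had a median brightness percentile of 99.4, hair shaft markers 99.6 and skeletal muscle markers 98.0, so both tissues' genes were bright. The bulge keratin Krt15 stood at percentile 99.6. Brightness differs between probes for technical reasons, so levels of different genes are not compared here, and no detection call was given. Within groups, arrays correlated across probes at 0.984 or more, and Vanillin replicate 3 stood apart from its group (0.984 and 0.985 with the other Vanillin arrays, which correlated at 0.994 with each other). That array lay farthest from its group at 54.5% of all probes and at 8 of the 12 member probes. Results of member probes whose call changes without it, or whose value moves by over 1.5 times, are therefore given both ways. Values of all other genes, also in the lists, are given with all arrays only, and how far they depend on it was not examined. Mock replicate 1 lay farthest at 47.3% of all probes and 8 member probes, and IMQ replicate 3 at 35.9% and 8 member probes.

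Imiquimod was followed by lower signals of 5 of the 10 genes. Fgf18, Lhx2 and Lrig1 fell by more than 2-fold, and Lgr5 and Cd34 fell by 1.86-fold and 1.72-fold. Nfatc1 rose on 1 of its 3 probes, while Lgr6, Sox9, Tcf7l1 and Shh did not pass the test. A probe was called when its adjusted p in limma, corrected over all 26423 probes, was under 0.05. By this rule 6 of the 12 member probes were called, 1 higher and 5 lower, beside 53.6% of all probes, so the share called was near the background. By direction, 29.6% of all probes were called lower and 24.0% higher. At least 2-fold calls were made for 3 of the 12 member probes, all of them lower, beside 13.5% of all probes, 6.44% lower. The IMQ and Mock arrays did not overlap at 10 member probes, 3 above and 7 below, beside 68.0% of all probes, 31.9% above and 36.1% below. The median log2 difference of the 12 probes, with Nfatc1 counted 3 times, was -0.28, beside -0.04 for all probes. With each of the 10 genes counted once, by its brightest probe, it was -0.57. With array weights in the fit, 10 member probes were called, 3 higher and 7 lower.

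With vanillin added to imiquimod, the signals of Fgf18, Lgr5, Lhx2, Lgr6 and Lrig1 were higher than with imiquimod alone, by 1.33-fold to 1.79-fold. Sox9 and the dimmest Nfatc1 probe were lower, and Cd34, Tcf7l1, Shh and the other Nfatc1 probes did not pass the test. In all 7 of the 12 member probes were called, 5 higher and 2 lower, beside 41.2% of all probes called, 24.3% higher and 17.0% lower. The groups did not overlap at 8 member probes, 5 above and 3 below, beside 58.5% of all probes, 32.8% above and 25.7% below. Of the 12, 0 differed by 2-fold here, beside 4.78% of all probes. The median log2 difference of the 12 probes, with Nfatc1 counted 3 times, was -0.01, beside 0.03 for all probes. With each of the 10 genes counted once, by its brightest probe, it was 0.17. Rises and falls lay on both sides. Without IMQ replicate 3, 4 member probes were called, all 4 higher, and 6576 probes in all in place of 10898. Without IMQ replicate 1 the count over all probes was 6923. Without Vanillin replicate 3, 9 member probes were called, 5 higher and 4 lower.

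Skin given imiquimod and vanillin also differed from Mock skin in these genes. Cd34, Lhx2, Lrig1 and Fgf18 were lower than in Mock, as they were in IMQ. Sox9 and Tcf7l1, not called in IMQ against Mock, were lower as well, and no member probe was called higher. That makes 6 of 12 member probes, beside 26.7% of all probes called, 14.7% lower and 11.9% higher. Lgr5, Lgr6, Shh and the 3 probes of Nfatc1 did not pass the test. The groups did not overlap at 7 member probes, 1 above and 6 below, beside 37.8% of all probes, 17.5% above and 20.3% below. Again 0 of the 12 differed by 2-fold, beside 4.48% of all probes. The median log2 difference of the 12 probes was -0.43, beside 0.01 for all probes, and -0.50 with each of the 10 genes counted once. Without Mock replicate 2 or 3, or without Vanillin replicate 2, 4 member probes were called. Without Vanillin replicate 3, 6 were called, 1 of them higher. This comparison shares its arrays with both others, so the 3 comparisons are not independent.

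**Figure D1:**
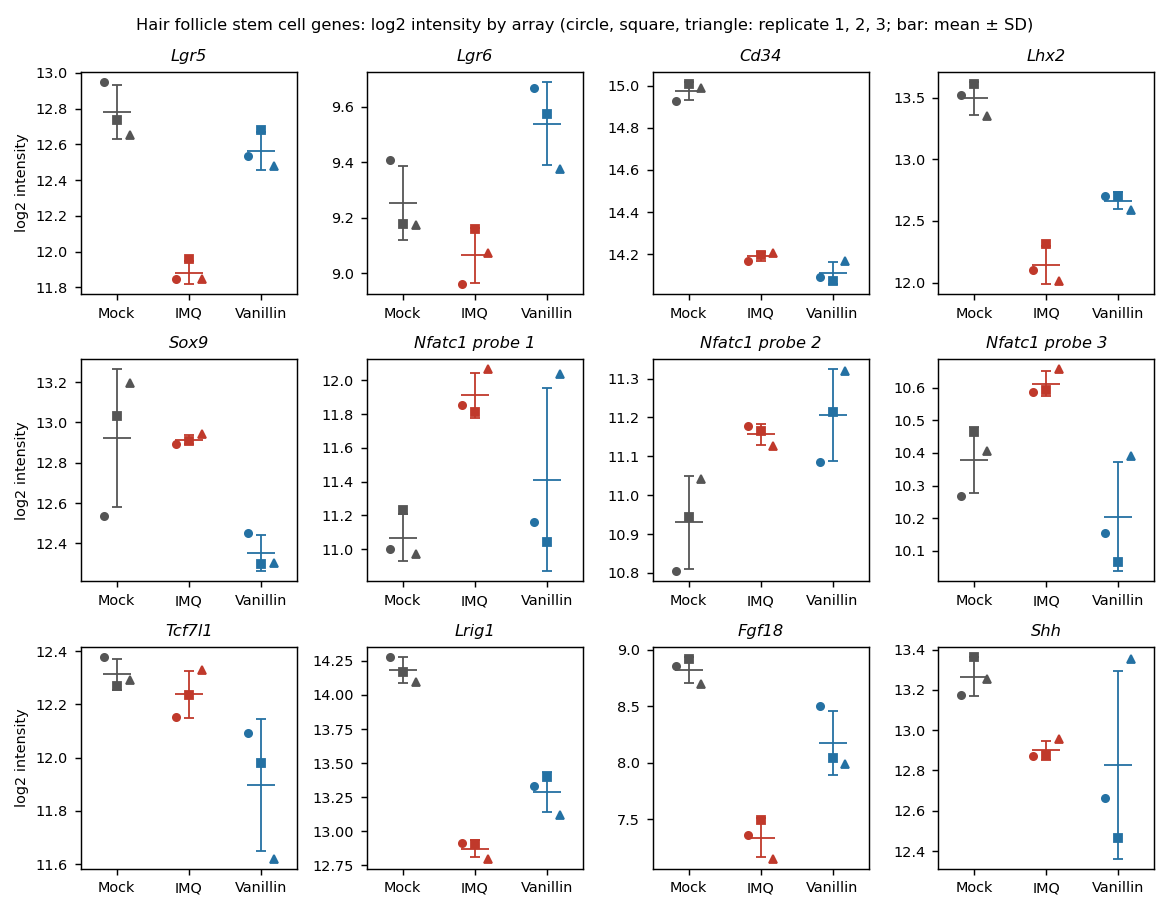
Log2 intensity of the 12 member probes on each of the 9 arrays (circle, square and triangle for replicates 1, 2 and 3; the bar is the mean ± SD, n = 3 arrays), with a separate vertical scale for each probe. The 3 groups of Lhx2, Lrig1 and Fgf18 do not overlap, with Vanillin between IMQ and Mock, while Cd34 stays near its IMQ level in Vanillin.

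**Figure D2:**
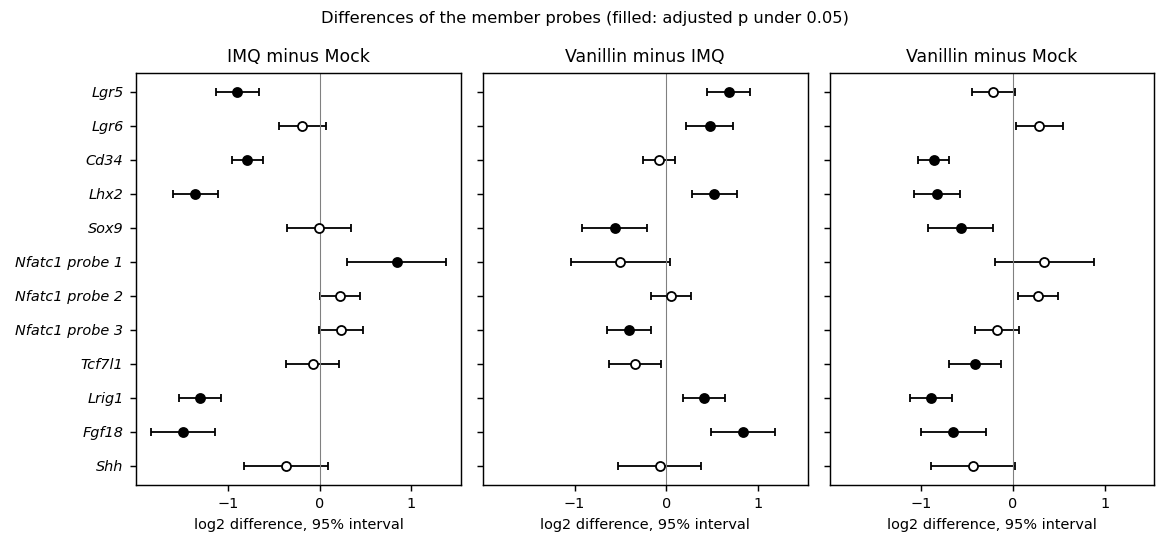
Log2 difference of each member probe in the 3 comparisons with its 95% interval from the limma fit, not adjusted for multiple tests; filled points had an adjusted p under 0.05. In the left panel Fgf18, Lhx2 and Lrig1 lie beyond -1, and in the right panel the called points all lie below 0.

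Among the receptors, Lgr5 binds R-spondins, secreted proteins that strengthen Wnt signals, and it marks cycling stem cells of the lower bulge and germ. Its log2 intensity was 12.95, 12.74 and 12.65 in Mock, 11.85, 11.96 and 11.85 in IMQ, and 12.53, 12.68 and 12.48 in Vanillin. All IMQ arrays lay below both other groups, and the highest Vanillin array lay above the lowest Mock array. Lgr5 fell by 0.90 ± 0.10 on the log2 scale in IMQ against Mock (SE, n = 3 arrays a group, adjusted p = 0.000156). It was higher in Vanillin than in IMQ by 0.68 ± 0.10 (adjusted p = 0.00225). Against Mock, Vanillin gave -0.22 ± 0.10 (adjusted p = 0.167), with a 95% interval of -0.45 to 0.02, so a deficit of up to 0.45 remains possible. Each of these intervals is from a single probe and is not adjusted for multiple tests.

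Lgr6 is the closely related receptor of the upper follicle. Its probe read, in log2 intensity, 9.41, 9.18 and 9.17 in Mock, 8.96, 9.16 and 9.07 in IMQ, and 9.67, 9.57 and 9.37 in Vanillin. The IMQ arrays lay just below the Mock arrays, by 0.19 ± 0.11 on average (adjusted p = 0.186), and did not pass the test. IMQ and Vanillin did not overlap, and Vanillin was higher by 0.47 ± 0.11 (adjusted p = 0.0110). Lgr6 thus differed from Lgr5 in which comparisons were called, but the difference between these genes was not tested. Against Mock, Vanillin gave 0.29 ± 0.11 (adjusted p = 0.0971). That difference was called without Vanillin replicate 3 (0.37, adjusted p = 0.0391), without Mock replicate 1 (0.36, adjusted p = 0.0429) and with array weights (0.41, adjusted p = 0.00914), and it ranged over its alternatives from an adjusted p of 0.00914 to 0.230. With array weights the difference of IMQ from Mock was also called (-0.20, adjusted p = 0.0198).

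Lrig1 is a membrane protein that damps signalling of the EGF receptor family and marks stem cells of the junctional zone. On the log2 scale its intensity was 14.28, 14.17 and 14.09 in Mock, 12.92, 12.90 and 12.80 in IMQ, and 13.33, 13.40 and 13.12 in Vanillin. No groups overlapped, with Vanillin between the others. Lrig1 fell by 1.31 ± 0.10 in IMQ against Mock, 2.48-fold (adjusted p = 2.10e-05). Vanillin was higher than IMQ by 0.41 ± 0.10 (adjusted p = 0.0123) and lower than Mock, at -0.89 ± 0.10 (adjusted p = 0.000277). The rise with vanillin missed the threshold without IMQ replicate 3 (0.38, adjusted p = 0.0550).

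Cd34 is a sialomucin of the cell surface that marks bulge cells of the mouse follicle and also blood vessels. The Cd34 probe read, in log2 intensity, 14.93, 15.01 and 14.99 in Mock, 14.17, 14.19 and 14.21 in IMQ, and 14.09, 14.07 and 14.17 in Vanillin. Both imiquimod groups lay below all Mock arrays and next to each other. Cd34 fell by 0.79 ± 0.07 in IMQ (adjusted p = 5.81e-05) and was lower than Mock in Vanillin by about the same, at -0.87 ± 0.07 (adjusted p = 6.63e-05). Vanillin against IMQ gave -0.08 ± 0.07 (adjusted p = 0.416), with an interval of -0.25 to 0.09. The upper end of that interval lies below the estimated rises of Lgr5, Lhx2 and Fgf18. It is from a single probe and not adjusted for multiple tests, and the difference between these genes was not tested.

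Markers of other Cd34-bearing cells are given beside it, to be read against the 24.0% of all probes called higher and 29.6% called lower in IMQ against Mock. Of 11 endothelial markers 0 were called higher and 8 lower in IMQ, among them the vessel cadherin Cdh5 at -1.39 ± 0.09, and 5 of 11 were higher in Vanillin than in IMQ. The mean log2 intensity of the 11 ran from 11.63 to 11.67 in Mock, 11.07 to 11.12 in IMQ and 11.30 to 11.35 in Vanillin. Of 10 fibroblast markers 2 were called higher and 8 lower in IMQ, with means of 12.85 to 12.98 in Mock, 12.54 to 12.61 in IMQ and 12.80 to 12.89 in Vanillin. Of 8 mast cell markers 1 was higher and 3 lower in IMQ, near the share of all probes, with means of 10.05 to 10.28 in Mock, at most 10.09 in IMQ and 10.03 to 10.11 in Vanillin. The fibroblast marker Thy1 and the mast cell marker Mcpt4 were not measured. Their part in the fall of Cd34 was not tested.

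Among the transcription factors, Lhx2 is a LIM homeodomain protein that maintains bulge cells. Lhx2 had log2 intensities of 13.52, 13.61 and 13.35 in Mock, 12.10, 12.31 and 12.01 in IMQ, and 12.70, 12.71 and 12.58 in Vanillin. As for Lrig1, no groups overlapped and Vanillin lay between the others. Lhx2 fell by 1.35 ± 0.11 in IMQ, 2.55-fold (adjusted p = 2.51e-05). It was higher in Vanillin than in IMQ by 0.52 ± 0.11 (adjusted p = 0.00663) but still lower than in Mock, at -0.83 ± 0.11 (adjusted p = 0.000657).

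Sox9 is an HMG-box factor of the outer root sheath that is needed for the stem cell pool to form. Its log2 intensity was 12.54, 13.03 and 13.19 in Mock, 12.89, 12.91 and 12.94 in IMQ, and 12.45, 12.30 and 12.30 in Vanillin. Mock replicate 1 lay well below the other Mock arrays, and all Vanillin arrays lay below both groups. IMQ against Mock gave -0.01 ± 0.16 (adjusted p = 0.979), with an interval of -0.36 to 0.35. Sox9 fell by 0.56 ± 0.16 in Vanillin against IMQ (adjusted p = 0.0200), and by 0.57 ± 0.16 against Mock (adjusted p = 0.0254). The call against IMQ was lost without IMQ replicate 1, 2 or 3 or Vanillin replicate 2 (adjusted p = 0.0561, 0.0506, 0.0647 and 0.0583). The call against Mock was lost without Mock replicate 2 or 3 or Vanillin replicate 2 or 3 (adjusted p = 0.0826, 0.0769, 0.0720 and 0.0569) and when IMQ was left out of the fit (0.0765).

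Tcf7l1, formerly called Tcf3, is a repressor of Wnt target genes that keeps bulge cells undifferentiated. Tcf7l1 had log2 intensities of 12.38, 12.27 and 12.29 in Mock, 12.15, 12.23 and 12.33 in IMQ, and 12.09, 11.98 and 11.62 in Vanillin. Mock and IMQ overlapped (-0.08 ± 0.13, adjusted p = 0.642), and all Vanillin arrays lay below both. Vanillin gave -0.34 ± 0.13 against IMQ (adjusted p = 0.0583) and was called lower than Mock, at -0.42 ± 0.13 (adjusted p = 0.0393). This last call was lost without each of the Mock and IMQ arrays and without Vanillin replicate 2 or 3 (adjusted p from 0.0586 to 0.0884). It was also lost with a replicate block (0.0692), when arrays were weighted (0.0596) and when IMQ was left out of the fit (0.103). Without Vanillin replicate 3 the differences were smaller, at -0.20 from IMQ (adjusted p = 0.101) and -0.28 from Mock (adjusted p = 0.0586). Without Vanillin replicate 1 the difference from IMQ was called (-0.44, adjusted p = 0.0367), as it was with the dimmest 25% of probes left out (adjusted p = 0.0458) and with a trended and robust prior (0.0394).

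Nfatc1, a factor that calcium and the phosphatase calcineurin bring into the nucleus, keeps bulge cells at rest. Its 3 probes did not give a single picture. The brightest probe read 11.00, 11.23 and 10.97 in Mock, 11.86, 11.81 and 12.07 in IMQ, and 11.16, 11.04 and 12.04 in Vanillin. IMQ lay above Mock by 0.84 ± 0.24 (adjusted p = 0.0153), a call lost without IMQ replicate 3 (0.76, adjusted p = 0.0551). In Vanillin, replicates 1 and 2 read as in Mock and replicate 3 as in IMQ. Vanillin against IMQ was therefore -0.50 ± 0.24 (adjusted p = 0.122) with all arrays and -0.81 (adjusted p = 0.00160) without Vanillin replicate 3. With array weights it was -0.69 (adjusted p = 0.00223). Vanillin against Mock gave 0.34 ± 0.24 (adjusted p = 0.331) with all arrays and 0.03 (adjusted p = 0.879) without Vanillin replicate 3. T cell markers, given because lymphocytes also make Nfatc1, moved beside it: of 8 measured, 5 were called higher and 0 lower in IMQ against Mock, and 2 higher and 3 lower in Vanillin against IMQ. Their mean log2 intensity ran from 9.36 to 9.48 in Mock, 9.93 to 9.96 in IMQ and 9.66 to 9.85 in Vanillin, and their part in the values of Nfatc1 was not tested.

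The second Nfatc1 probe read 10.80, 10.94 and 11.04 in Mock, 11.18, 11.16 and 11.13 in IMQ, and 11.08, 11.22 and 11.32 in Vanillin. It gave 0.23 ± 0.10 for IMQ against Mock (adjusted p = 0.0766), 0.05 ± 0.10 in Vanillin relative to IMQ and 0.28 ± 0.10 relative to Mock (adjusted p = 0.0662). Without Vanillin replicate 3 the difference from IMQ was -0.01 (adjusted p = 0.962). The dimmest probe read 10.27, 10.46 and 10.41 in Mock, 10.59, 10.59 and 10.66 in IMQ, and 10.16, 10.07 and 10.39 in Vanillin. It gave 0.23 ± 0.10 for IMQ against Mock (adjusted p = 0.0905) and was called lower in Vanillin than in IMQ, at -0.41 ± 0.10 (adjusted p = 0.0152). That call was lost without IMQ replicate 3 (adjusted p = 0.0602) or Vanillin replicate 2 (0.0517), while IMQ against Mock was called on this probe without Vanillin replicate 3 (adjusted p = 0.0361). Vanillin against Mock gave -0.17 ± 0.10 (adjusted p = 0.264), and -0.27 (adjusted p = 0.0633) without that array. On all 3 probes the IMQ arrays lay above all Mock arrays, as at 31.9% of all probes. With array weights the second probe was called higher in IMQ (0.22, adjusted p = 0.00250) and in Vanillin against Mock (0.21, adjusted p = 0.0478), the latter also without the dimmest 25% of probes (adjusted p = 0.0455). With the same weights the dimmest of the 3 was called higher in IMQ (0.15, adjusted p = 0.0235) and lower in Vanillin against Mock (-0.31, adjusted p = 0.0115). Which transcripts each probe reads is not given in the sources used here.

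Among the ligands, Fgf18 is made by resting bulge cells and holds the follicle in its resting phase. Its log2 intensity was 8.86, 8.92 and 8.70 in Mock, 7.36, 7.50 and 7.15 in IMQ, and 8.50, 8.04 and 7.99 in Vanillin. All groups were separate, with Vanillin between the others. It had the largest difference of the 12 probes between IMQ and Mock, a fall by 1.49 ± 0.15 or 2.81-fold (adjusted p = 8.78e-05). Vanillin was higher than IMQ by 0.84 ± 0.15 (adjusted p = 0.00414) and lower than Mock, at -0.65 ± 0.15 (adjusted p = 0.0136). The probe was the dimmest of the 12 (percentile 35.3), below the median log2 intensity of 9.30 on all arrays. How near 7.34, its mean in IMQ, lies to background is therefore unknown.

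Shh is made by the matrix of growing follicles and by the germ at the start of growth. The Shh probe read, in log2 intensity, 13.17, 13.37 and 13.26 in Mock, 12.87, 12.88 and 12.96 in IMQ, and 12.66, 12.46 and 13.35 in Vanillin. All IMQ arrays lay below Mock, as did Vanillin replicates 1 and 2, but Vanillin replicate 3 read as in Mock. With all arrays no comparison was called: IMQ against Mock gave -0.36 ± 0.20 (adjusted p = 0.156), Vanillin against IMQ -0.07 ± 0.20 (adjusted p = 0.790) and Vanillin against Mock -0.44 ± 0.20 (adjusted p = 0.149). Without Vanillin replicate 3 the values were -0.36 (adjusted p = 0.00800), -0.34 (0.0244) and -0.70 (0.00167), all called. Since all groups share one estimate of the spread, the first of these moved only through its error. Fitted with Mock and IMQ alone it was called as well (adjusted p = 0.00863), as it was with array weights (-0.46, adjusted p = 0.000753). Vanillin against Mock was also called with array weights (-0.70, adjusted p = 0.00199).

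**Figure D3:**
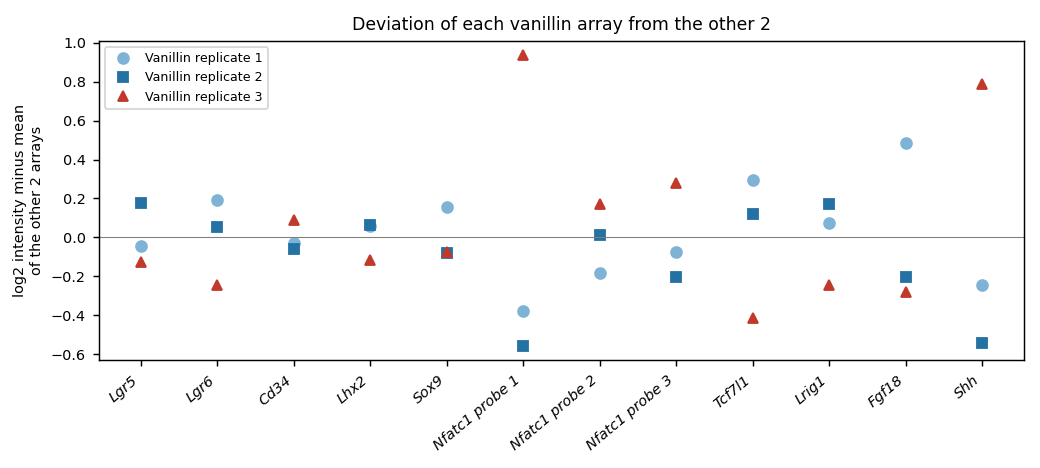
Log2 intensity of each Vanillin array minus the mean of the other 2 Vanillin arrays, for the 12 member probes. Replicate 3 (triangles) lies far above the others for the brightest Nfatc1 probe and Shh and below them for Tcf7l1, while for Lhx2, Cd34 and Sox9 the 3 arrays lie close together.

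The sequences before the start sites are shown for the members that fell in IMQ and had an entry in the RefSeq promoter table (build GRCm38.p6), so that those that moved alike can be set side by side with Cd34. The table held 7 windows for 6 of the 10 genes. Each run below gives the bases outside the gene's own RefSeq extent, 5′ to 3′ on the gene's strand, and capitals mark a match to a searched motif. Fgf18, Lrig1 and Lhx2 fell with imiquimod and were partly higher again with vanillin, and Cd34 fell and stayed low. The Lhx2 run overlaps a predicted gene annotated there.
Fgf18 (chr11:33147401-33147650, minus strand): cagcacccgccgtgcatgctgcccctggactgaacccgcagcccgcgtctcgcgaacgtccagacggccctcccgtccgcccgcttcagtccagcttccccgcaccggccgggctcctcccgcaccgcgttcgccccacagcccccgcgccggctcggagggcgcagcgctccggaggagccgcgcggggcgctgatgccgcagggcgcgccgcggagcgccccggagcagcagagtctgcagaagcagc
Lrig1 (chr6:94700299-94700395, minus strand): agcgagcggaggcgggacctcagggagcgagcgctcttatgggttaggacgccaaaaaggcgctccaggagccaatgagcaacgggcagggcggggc
Lhx2 (chr2:38339031-38339270, plus strand): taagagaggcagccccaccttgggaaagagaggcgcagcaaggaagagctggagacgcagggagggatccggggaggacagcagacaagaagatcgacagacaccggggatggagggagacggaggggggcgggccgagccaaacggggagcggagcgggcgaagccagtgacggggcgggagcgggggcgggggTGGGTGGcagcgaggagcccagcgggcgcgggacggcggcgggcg
Cd34 (chr1:194938571-194938820, plus strand): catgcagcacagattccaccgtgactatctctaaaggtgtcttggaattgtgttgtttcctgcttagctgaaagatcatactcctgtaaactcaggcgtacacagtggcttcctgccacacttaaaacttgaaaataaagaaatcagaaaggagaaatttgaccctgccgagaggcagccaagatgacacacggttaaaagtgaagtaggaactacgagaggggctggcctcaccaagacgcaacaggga

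In the 250 bases before each start site, Fgf18 had 37 CpG dinucleotides, Lrig1 26, Lhx2 25 and Cd34 6, beside a median of 6 over 32851 windows. Only 97 of these 250 bases for Lrig1, and 240 for Lhx2, lie outside the gene's RefSeq extent and are printed above. The counts of these genes therefore cover bases that are not shown. Tcf7l1 and Lgr6, which were not called in IMQ against Mock, had 29 and 16, and the downstream Lhx2 window had 24. Motifs were searched on both strands in the same 250 bases. The GLI core letters CCACCCA, from the factors that act in hedgehog signalling, stood once, in the upstream Lhx2 window, on the opposite strand from 55 bases before the start, and 8.11% of all windows held them. The TCF/LEF letters CTTTGAT, or the same letters ending in GAA or GTT, were in none of the 7 member windows, and 12.0% of all windows held them. The SOX letters ACAAAG, or with T for the last A the letters ACAATG, were in the windows of Lgr6 and Tcf7l1 and in 25.2% of all windows; ACAAAG read on the opposite strand overlaps CTTTGTT. The letters TATAAA were in no member window and in 12.4% of all. A match is a description of letters only.

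The pathways around the members were described from lists of other genes, whose counts are to be read against the shares of all probes called given above. Some lists share genes, such as Gli1, Lgr4 and Hhip, so their counts are not independent. Several lists also held dim probes. The lowest brightness percentile was 40.2 in the hedgehog list, 6.88 in the FGF list, 5.97 in the LRIG and EGF receptor list and 3.63 in the Wnt list. For Shh, the hedgehog list had 15 measured genes, of which 1 was called higher and 8 lower in IMQ, with a median log2 difference of -0.42. The target gene and effector Gli1 fell by 1.02 ± 0.12 (adjusted p = 0.000140) and Hhip, a target that binds and restrains the ligand, fell by 1.23 ± 0.16 (adjusted p = 0.000335). The receptor Ptch1, itself a target, went the other way, at 0.58 ± 0.13 (adjusted p = 0.00550) on a probe at percentile 40.6. Against IMQ, Vanillin had 6 higher and 2 lower, with Hhip at 1.27 ± 0.16 (adjusted p = 0.00142), Gli1 at 0.75 ± 0.12 (adjusted p = 0.00231) and Ptch1 at -0.82 ± 0.13. Against Mock 0 of 15 were called higher and 2 lower. Gli1 and Hhip in Vanillin were at -0.27 ± 0.12 (adjusted p = 0.126) and 0.04 ± 0.16 (adjusted p = 0.890) from Mock.

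**Figure D4:**
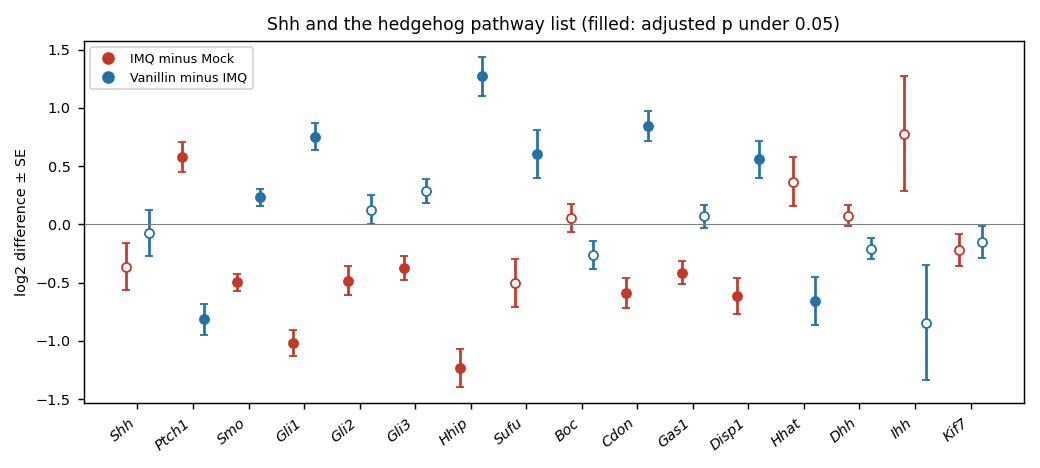
Log2 difference ± SE of Shh and the 15 measured genes of the hedgehog list for IMQ minus Mock (red) and Vanillin minus IMQ (blue); filled points had an adjusted p under 0.05. Gli1, Hhip and Cdon fell with imiquimod and were higher with vanillin, Ptch1 shows the opposite signs, and Shh was called in neither; both comparisons share the IMQ arrays.

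For Lgr5 and Lgr6, the Wnt and R-spondin list had 44 measured genes, with 5 called higher and 25 lower in IMQ (median -0.56). The third receptor of the family, Lgr4, fell by 0.68 ± 0.12 in IMQ (adjusted p = 0.00184) and was higher in Vanillin than in IMQ by 0.72 ± 0.12 (adjusted p = 0.00346), the same signs as Lgr5. The smallest p-values in the list were those of the Wnt inhibitor Sfrp1 at -1.37 ± 0.08 (adjusted p = 4.42e-06), the receptor Fzd10 at -1.18 ± 0.11 and the factor Tcf7, a relative of Tcf7l1, at -1.10 ± 0.11. Against IMQ, Vanillin had 12 higher and 3 lower, among them Tcf7l2, another relative, at 0.60 ± 0.11, and against Mock 2 higher and 16 lower, with Sfrp1 still at -1.16 ± 0.08. For Fgf18, the FGF list had 15 measured genes, with 1 higher and 9 lower in IMQ. Fgf5, which ends the growth phase, fell by 1.78 ± 0.10 (adjusted p = 4.47e-06), and the receptor Fgfr3, which FGF18 can bind, fell by 0.77 ± 0.08 (adjusted p = 6.78e-05). Against IMQ, Vanillin had 6 higher and 2 lower. The FGF-induced factor Etv4 was higher, at 0.63 ± 0.13, and Fgf5 was not called (-0.09 ± 0.10, adjusted p = 0.499).

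For Nfatc1, the list of NFAT and calcineurin genes had 11 measured genes, with 4 higher and 4 lower in IMQ, 3 higher and 2 lower in Vanillin against IMQ, and 3 higher and 3 lower against Mock. The calcineurin subunit Ppp3cc fell by 1.54 ± 0.10 in IMQ (adjusted p = 9.50e-06), while the subunit Ppp3ca rose by 0.45 ± 0.08 (adjusted p = 0.00153). For Lrig1, the list of its family and of EGF receptors and ligands had 11 measured genes, with 5 higher and 3 lower in IMQ. The EGF receptor ligand Ereg rose by 2.64 ± 0.11 (adjusted p = 1.28e-06), and the receptor gene Erbb3 fell by 1.95 ± 0.17 (adjusted p = 4.36e-05). Against IMQ, Vanillin had 0 higher and 2 lower, Ereg at -1.01 ± 0.11 and the feedback inhibitor Errfi1 at -0.98 ± 0.22. Of the relatives of Lhx2 and Sox9 and their cofactors, 25 were measured, with 6 higher and 8 lower in IMQ. Sox7 rose by 2.08 ± 0.09 (adjusted p = 1.16e-06) and Lhx6 fell by 1.12 ± 0.13 (adjusted p = 0.000158).

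Of 22 other genes known from follicle stem cells and the upper follicle, 4 were called higher and 12 lower in IMQ, 8 higher and 2 lower in Vanillin against IMQ, and 3 higher and 9 lower in Vanillin against Mock. The smallest p-values for IMQ against Mock were those of Stat3, Dkk3, Gli1 and Runx1. Krt15, Runx1 and Plet1, given next, all fell in IMQ, so they do not show the 4 genes called higher. Krt15 had the same order of group means as Cd34, at -0.38 ± 0.10 in IMQ against Mock (adjusted p = 0.0120) and -0.29 ± 0.10 in Vanillin against IMQ (adjusted p = 0.0472). Runx1, a factor that promotes the start of growth, fell by 0.68 ± 0.09 in IMQ (adjusted p = 0.000368) and gave -0.03 ± 0.09 for Vanillin against IMQ (adjusted p = 0.811). Plet1, a marker of the junctional zone where Lrig1 is made, fell by 0.47 ± 0.09 (adjusted p = 0.00231) and was higher in Vanillin than in IMQ by 0.62 ± 0.09 (adjusted p = 0.00202). Markers of the hair shaft moved beside these genes: of 8 measured, 1 was called higher and 5 lower in IMQ, and their mean log2 intensity ran from 15.90 to 16.13 in Mock, 15.42 to 15.45 in IMQ and 15.34 to 15.40 in Vanillin. Of 7 basal keratinocyte markers 3 were higher and 2 lower in IMQ, with means of 14.82 to 14.91, 14.95 to 15.01 and 14.86 to 14.97. Of 10 suprabasal markers 7 were higher and 1 lower, with means of 15.47 to 15.50 in Mock and 16.62 to 16.65 in IMQ. Markers of skeletal muscle and adipocytes moved in the pattern of Lgr5, Lhx2 and Fgf18 as well, lower in IMQ and partly or nearly back in Vanillin. Of 7 skeletal muscle markers 6 were lower in IMQ and 5 higher in Vanillin than in IMQ, with means of 14.35 to 14.49 in Mock, 13.79 to 13.82 in IMQ and 14.20 to 14.26 in Vanillin. Of 8 adipocyte markers 6 were lower in IMQ, and 6 were higher and 1 lower in Vanillin than in IMQ, with means of 12.95 to 13.12, 12.11 to 12.21 and 12.59 to 12.61. All 5 melanocyte and all 5 Schwann cell markers measured were lower in IMQ. In Vanillin all 5 melanocyte markers and 4 of the 5 Schwann cell markers were still lower than in Mock. Melanocyte means ran from 14.54 to 14.61, 13.14 to 13.20 and 13.26 to 13.28, and Schwann cell means from 11.19 to 11.30, 10.23 to 10.36 and 10.41 to 10.66. Of 6 proliferation genes 5 were lower in IMQ and 3 higher in Vanillin than in IMQ. The part of these shifts in the members' values was not tested.

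**Figure D5:**
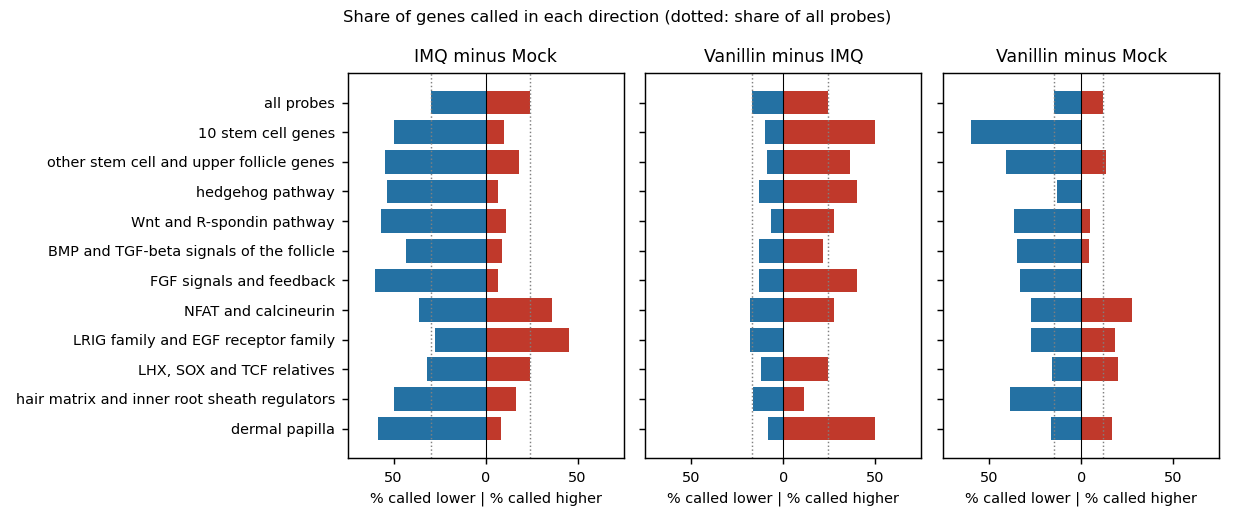
Percentage of measured genes called lower (blue, to the left) and higher (red, to the right) in each comparison, for all probes, for the 10 stem cell genes by their brightest probe and for the 10 lists around them; dotted lines mark the shares of all probes. In the left panel the hedgehog, Wnt and FGF lists had 8 of 15, 25 of 44 and 9 of 15 genes lower. They extend past the dotted line on the left, as do all other lists but that of LRIG and EGF receptor genes. Some lists share genes, both imiquimod comparisons share arrays, and no list was tested.

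Across the 9 arrays, Lhx2, Lrig1 and Fgf18 tracked each other with Pearson correlations of 0.94 to 0.98, and Lgr5 tracked them at 0.87 to 0.93. Cd34 tracked Lhx2 and Lrig1 at 0.87 and 0.90, Lgr6 at -0.20. These are descriptions over 9 arrays in 3 groups. Differences between the groups' means enter them, and how much was not computed. The genes most like each member over the 9 arrays, by the same measure, were Zfp653, Timm8b and Ttc9 for Lgr5 (0.996 to 0.997), Flot1, Ptpn13 and Rsl1d1 for Lhx2 (0.994 to 0.995) and Traf4, Tcfl5 and Aldh7a1 for Fgf18 (0.994 to 0.995). For Lrig1 they were Ifitm6, Aebp1 and St8sia6 (0.998 to 0.999), and for Cd34 Snai1, Fkbp1a and Krt77 (0.997 to 0.998). For Lgr6 they were Prrc2a, Trim47 and Mbd4 (0.981 to 0.985), and for Sox9 Rassf5, Rcan1 and Mpdu1 (0.989 to 0.994). For the brightest Nfatc1 probe they were Mapk4, Wdr20rt and Opn4 (0.996 to 0.999). For Tcf7l1 they were Tbc1d2b, Rfx5 and a probe annotated Mir341 that was not matched by position (0.959 to 0.974). With group means removed, the correlations with this Nfatc1 probe were 0.989 to 0.997, and Vanillin replicate 3 lay far from its group on it. The same step gave 0.981 to 0.988 for Sox9 and 0.516 to 0.769 for Cd34. It gave 0.949 to 0.973 for Lgr5, 0.948 to 0.953 for Lgr6 and 0.808 to 0.924 for Lhx2. For Lrig1 it gave 0.938 to 0.971, for Fgf18 0.922 to 0.955 and for Tcf7l1 0.909 to 0.944. All these genes were picked for their high correlation on the same arrays.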

How the data were processed

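Cy5-labelled total RNA from 9 samples was read on one-colour arrays, as the labels' protocols state. The deposited table holds linear probe intensities of 26423 probes, for which the submitters' processing notes list limma. How background was corrected and probes were filtered is not stated in those sources. Sorted values above 100 differed between the 9 columns by at most 3.42% and medians by 0.00496 log2 units. No further normalization was therefore applied, and a change of total signal cannot be seen.

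Values under 1 were set to 1 and log2 was taken. A model with 1 mean per group was fitted to all 9 arrays with limma 3.58.1 in R 4.3.3, with Benjamini-Hochberg adjustment over all probes in each comparison. Of the probes 20377 had 1 gene symbol and 6046 none. RefSeq GRCm38.p6 held the symbols of 18213 probes, those of 2126 probes were updated from synonyms and those of 38 probes were kept as given. All probes of the members are reported, and other genes by their brightest probe. Those named in a list have its smallest p-values, predicted genes passed over, or were named for their relation to a member after their values were seen. The members and lists were chosen with earlier results of these data known, and no list was tested. Same-numbered samples did not deviate together (correlations of -0.27 to 0.22 over 9 pairs, 2 above 0.1), so the numbers were not taken as pairs. Alternatives changed the normalization, dim probe filter, offset, prior, array weights, arrays in the fit, replicate block, threshold and unit, or left out 1 array.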

Additional observations from a re-analysis of the deposited data

How the results depend on the processing

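Of the 19 calls made for member probes in the 3 comparisons, 11 held in all 18 alternatives and 13 in all but the stricter threshold, and 0 called differences changed sign. The prior, threshold, dim probe filter, replicate block and arrays left out of a group outside the comparison cannot change a difference. They can change only its error or its call. The 18 alternatives share arrays and are not independent checks. The falls of Fgf18, Lhx2, Lrig1, Lgr5 and Cd34 in IMQ and the rises of Fgf18, Lhx2 and Lgr5 in Vanillin against IMQ were among those that held throughout. The number of member probes called for IMQ against Mock (6) was 10 with array weights, and 5 to 8 with 1 array left out. For Vanillin against IMQ (7) it was 3 at an adjusted p under 0.01, and 4 to 9 with 1 array left out, 4 being without IMQ replicate 3. For Vanillin against Mock (6) it was 3 at the stricter threshold, and 4 to 6 with 1 array left out. Over all probes the counts at an adjusted p under 0.01 were 5457 for Vanillin against IMQ, in place of 10898, and 4231 for Vanillin against Mock, in place of 7045. With 1 array left out they ran from 11551 to 15901 for IMQ against Mock (14157 with all arrays), from 6576 to 12805 for Vanillin against IMQ and from 5507 to 7767 for Vanillin against Mock. With the replicate number as a block, 6, 7 and 5 member probes were called, and Tcf7l1 against Mock was the only member call it ended (adjusted p = 0.0692). Array weights, which give less weight to arrays that differ from their group, gave the most calls over all probes, 19830, 16208 and 10260. The Fgf18 probe was dim, and with no background level given the true size of its fall is not known.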

Other observations

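The counts below are to be read against all probes, of which 24.0% were called higher and 29.6% lower in IMQ against Mock, 24.3% and 17.0% in Vanillin against IMQ, and 11.9% and 14.7% in Vanillin against Mock. Of 12 measured dermal papilla genes, 1 was called higher and 7 lower in IMQ against Mock, and 6 higher and 1 lower in Vanillin against IMQ. Alkaline phosphatase Alpl, a marker of the papilla, fell by 0.76 ± 0.13 (SE, adjusted p = 0.00109) and was then higher by 0.73 ± 0.13 (adjusted p = 0.00337), while the transcription factor Trps1 fell by 1.14 ± 0.11 (adjusted p = 6.21e-05) and gave 0.14 ± 0.11 with vanillin (adjusted p = 0.340). Of 23 BMP and TGF-beta genes, 2 were called higher and 10 lower in IMQ, in all near the 53.6% of all probes called. Bmp6, a signal that keeps bulge cells at rest, fell by 1.05 ± 0.16 (adjusted p = 0.000634) and was higher in Vanillin than in IMQ by 1.16 ± 0.16 (adjusted p = 0.00163). The BMP inhibitor Grem1 went the other way, at 1.37 ± 0.10 (adjusted p = 2.06e-05) and -0.51 ± 0.10 (adjusted p = 0.00643).

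Of 18 genes of the hair matrix and inner root sheath, 3 were called higher and 9 lower in IMQ, 2 higher and 3 lower in Vanillin against IMQ, and 0 higher and 7 lower in Vanillin against Mock. Foxn1, the factor missing in nude mice, fell by 0.90 ± 0.09 (adjusted p = 9.31e-05) and was higher with vanillin by 0.47 ± 0.09 (adjusted p = 0.00541). Foxq1, a factor of the hair medulla, fell by 0.97 ± 0.10 in IMQ (adjusted p = 9.53e-05) and was lower still in Vanillin, at -0.62 ± 0.10 against IMQ (adjusted p = 0.00289). The inner root sheath keratin Krt28 gave 0.03 ± 0.15 in IMQ (adjusted p = 0.867) and fell by 0.91 ± 0.15 in Vanillin against IMQ (adjusted p = 0.00269). The first and second comparisons share the IMQ arrays, and none of these lists was tested.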
